A study of Mus musculus with 36 samples.

Results

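The simple keratins and epithelial junction genes are 9 genes of the 39017 in the deposited count table: the keratins Krt7, Krt8, Krt18 and Krt19, the adhesion genes Epcam and Cdh1, and the claudins Cldn4, Cldn6 and Cldn7. They were found by symbol, and each symbol matched 1 row. The set was put together as possible tumour RNA among sorted fibroblasts after results of these libraries were known, from levels in co-culture against mono-culture, so that contrast is given below as a description with no test. The libraries hold RNA of mouse pancreatic fibroblasts of the C57BL/6 strain. One group of 4 was cultured alone (mono-culture). The other 8 groups of 4 shared a dish for 48 h with GFP-bearing tumour cells, namely the sub-clones E, H, K, M, N, T or V or the line labelled KPC1, whose name the labels do not explain, and were then separated from them by flow sorting on GFP. What else the tumour lines carry, how many animals or fibroblast isolates were used and whether replicates were separate cultures is not given in the sources used here, so the p-values measure only the spread between these libraries, which may be technical.

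Keratins 8 and 18 pair as type II and type I proteins into the intermediate filaments of simple epithelia, and keratins 7 and 19 join them in ducts such as those of the pancreas. E-cadherin, the product of Cdh1, holds epithelial cells together at adherens junctions, Epcam is a surface adhesion protein of epithelia, and claudins form the strands of tight junctions. Fibroblasts are mesenchymal cells that are known for vimentin and collagen and not for these proteins, and loss of E-cadherin, with or without loss of keratins, is a known feature of carcinoma cells that take on mesenchymal traits.

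Promoter sequences are shown for Krt8, Krt18 and Cldn6, whose levels moved together across libraries, and for Epcam, which stayed at or near 0 in the same libraries. RefSeq promoters (GRCm38.p6, 250 bases before to 50 after the start) were given for 7 of the 9 genes, with 2 for Cldn7, and not for Cdh1 and Krt19. They were searched on both strands for the E-box CACCTG, which reads CAGGTG on the opposite strand and is the element bound by repressors of the Snail and Zeb families. No other motif was searched. The 250 bases before each start follow, 5′ to 3′ on the strand of the gene, with the E-box in capitals. They lie at chr15:102004343-102004592 (minus strand), chr15:102027966-102028215 (plus strand), chr17:23679115-23679364 (plus strand) and chr17:87635729-87635978 (plus strand). The GENCODE models of Krt8, Krt18 and Cldn6 begin upstream of these RefSeq starts, so part of each of the 3 windows lies inside them.
Krt8: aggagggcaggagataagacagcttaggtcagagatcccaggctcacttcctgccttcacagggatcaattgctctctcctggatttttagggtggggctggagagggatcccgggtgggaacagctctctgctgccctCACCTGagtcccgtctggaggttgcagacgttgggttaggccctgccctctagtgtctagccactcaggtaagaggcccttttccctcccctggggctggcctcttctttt
Krt18: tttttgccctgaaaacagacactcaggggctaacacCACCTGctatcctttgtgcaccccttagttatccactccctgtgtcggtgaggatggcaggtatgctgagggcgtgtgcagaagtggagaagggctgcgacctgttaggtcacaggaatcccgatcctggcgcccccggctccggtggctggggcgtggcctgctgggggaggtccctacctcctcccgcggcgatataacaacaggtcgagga
Cldn6: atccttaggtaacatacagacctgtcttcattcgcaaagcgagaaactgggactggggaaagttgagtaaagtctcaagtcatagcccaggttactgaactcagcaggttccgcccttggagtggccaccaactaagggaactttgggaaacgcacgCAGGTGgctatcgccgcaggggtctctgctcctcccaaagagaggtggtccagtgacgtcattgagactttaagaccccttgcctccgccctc
Epcam: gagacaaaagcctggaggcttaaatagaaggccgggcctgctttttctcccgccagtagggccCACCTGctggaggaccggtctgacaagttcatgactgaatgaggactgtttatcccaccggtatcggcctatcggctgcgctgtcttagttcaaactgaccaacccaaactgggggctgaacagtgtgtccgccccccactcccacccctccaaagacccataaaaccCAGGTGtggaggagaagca

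The E-box was present in 7 of the 8 member promoters, all but 1 of the 2 of Cldn7, and in 20.2% of 32851 promoters of the same length. It began 111 bases before the start of Krt8, 214 before that of Krt18, 93 before that of Cldn6, and 187 and 19 before that of Epcam. The promoters of genes that were high in the co-cultures and of genes that stayed near 0 held the same letters, and a match is no evidence of a site in use.

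Library totals ranged from 12532122 to 21985538 counts, and 3 counts, taken as the floor per library, corresponded to 0.131 to 0.228 CPM (counts scaled to library size, with TMM factors between libraries). Intervals and floors cover counting error only, since amplified reads are not independent molecules. Of 14 listed fibroblast markers, Col1a1 lay at 6670 to 7935 CPM in mono-culture and at 3707 to 12586 CPM in co-culture. Lum was low, at 3.61 to 9.46 and 0.105 to 12.4 CPM, and Fap was at 0.640 to 1.52 CPM in mono-culture. The 9 genes together took 1.03e-04% to 1.74e-04% of the counts of a mono-culture library and 0.00195% (Clone K) to 0.0851% (Clone T) of those of a co-culture library.

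Krt18 and Krt8 had the highest levels per length of the members in co-culture and 4 counts or fewer in each library without it. Krt18 encodes the type I and Krt8 the type II partner of the same filament, and the genes are neighbours (GRCm38 chr15:102028180-102032027, plus strand, and chr15:101996698-102004482, minus strand). In the mono-culture libraries, replicates 1 to 4, Krt18 had 3, 4, 1 and 4 counts and Krt8 0, 0, 0 and 2 counts. All 32 co-culture libraries held at least 143 counts of Krt18 and 120 of Krt8.

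In the same order of replicates, Krt18 stood at 429, 185, 237 and 273 CPM with Clone T. With Clone N it stood at 206, 325, 261 and 291 CPM. With KPC1 it stood at 315, 102, 185 and 155 CPM. These 3 co-cultures had the highest means, and their ranges overlapped. With Clone E the values were 155, 115, 225 and 146 CPM, and with Clone H 81.5, 39.4, 147 and 106 CPM. With Clone M they were 64.6, 23.4, 238 and 130.3 CPM. With Clone K they were 23.5, 9.30, 118 and 143 CPM, so the libraries of that co-culture spanned 15.4-fold. With Clone V they were 17.2, 14.9, 69.9 and 115 CPM, the lowest mean. In the order of the 8 means, each of the 7 neighbouring pairs overlapped in range.

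Krt8 followed a similar but not the same order. It stood at 159.7, 188, 137 and 139 CPM with Clone N and at 227, 64.3, 97.6 and 132 CPM with Clone T. With Clone E it stood at 110.2, 82.1, 152 and 99.998 CPM. Clone N was thus high in each of its libraries, while Clone T was high in replicate 1. With Clone M Krt8 stood at 53.5, 22.96, 212 and 108 CPM, and with KPC1 at 123, 32.6, 73.7 and 57.8 CPM. With Clone K it stood at 23.1, 7.80, 105 and 136 CPM, a span of 17.4-fold. Clone K and Clone M were the co-cultures with the widest spread of both keratins. With Clone H the values were 39.2, 15.1, 55.4 and 44.3 CPM and with Clone V 7.43, 6.35, 19.9 and 44.4 CPM. All 7 neighbouring pairs of lines overlapped in range.

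Krt19, a type I keratin that is characteristic of pancreatic ducts (GRCm38 chr11:100140810-100148665, minus strand), had 4, 3, 3 and 4 counts in mono-culture. With Clone N it had 51.6, 122, 69.3 and 75.7 CPM, and with Clone T 131, 33.7, 54.0 and 96.6 CPM. With KPC1 it had 105, 26.4, 60.4 and 59.4 CPM, and with Clone E 50.8, 45.7, 81.9 and 57.0 CPM. These 4 co-cultures had the highest means, and their ranges overlapped one another. With Clone M it had 22.3, 5.41, 68.6 and 40.8 CPM, and with Clone H 19.1, 5.51, 27.6 and 25.3 CPM. With Clone V it had 3.71, 2.89, 11.1 and 26.7 CPM. With Clone K it had 2.45, 0.520, 6.61 and 21.01 CPM, the lowest mean and the widest span, 40.4-fold. Replicate 2 of Clone K held 8 counts of Krt19.

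Cldn6 encodes a tight junction claudin that is best known from embryonic epithelia (GRCm38 chr17:23679249-23682446, plus strand). It had 0 counts in each mono-culture library and at least 23 counts in each of the 32 co-culture libraries. With Clone T it stood at 64.0, 21.4, 32.2 and 38.0 CPM and with KPC1 at 34.2, 12.5, 24.4 and 12.6 CPM. With Clone H it stood at 10.4, 8.38, 35.4 and 23.1 CPM. The other 5 lines had lower means that overlapped one another. With Clone N the values were 11.5, 18.3, 17.7 and 17.3 CPM, with Clone M 6.14, 2.98, 35.4 and 11.6 CPM and with Clone E 10.1, 7.57, 24.97 and 10.98 CPM. With Clone K they were 3.96, 1.495, 22.6 and 12.5 CPM and with Clone V 2.34, 2.79, 9.64 and 17.5 CPM. Neighbours in the order of means overlapped in range throughout.

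Cdh1 encodes E-cadherin (GRCm38 chr8:106603351-106670246, plus strand) and differed most between lines. Its mono-culture counts were 8, 8, 2 and 0. With KPC1 it stood at 44.1, 21.3, 37.3 and 20.8 CPM, with Clone N at 15.8, 35.3, 27.3 and 27.2 CPM and with Clone E at 19.6, 15.6, 34.4 and 19.3 CPM. With Clone V it stood at 6.36, 4.33, 21.7 and 27.8 CPM. These 4 lines had the high levels, and Clone V is among them although its Krt8, Krt18 and Krt19 were the lowest or next to lowest. With Clone T Cdh1 stood at 9.38, 3.08, 4.81 and 5.54 CPM and with Clone H at 2.69, 2.58, 9.08 and 4.63 CPM. With Clone K it had 12, 2, 23 and 16 counts, which is 0.566, 0.130, 1.22 and 0.720 CPM. With Clone M it had 0, 2, 0 and 0 counts. Clone M libraries were thus below the floor, as were 2 of the 4 mono-culture libraries, while holding 378 to 3706 counts of Krt8. Clone H did not overlap Clone K, and Clone K did not overlap Clone M, while the 5 pairs above them in the order overlapped.

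**Figure D1:**
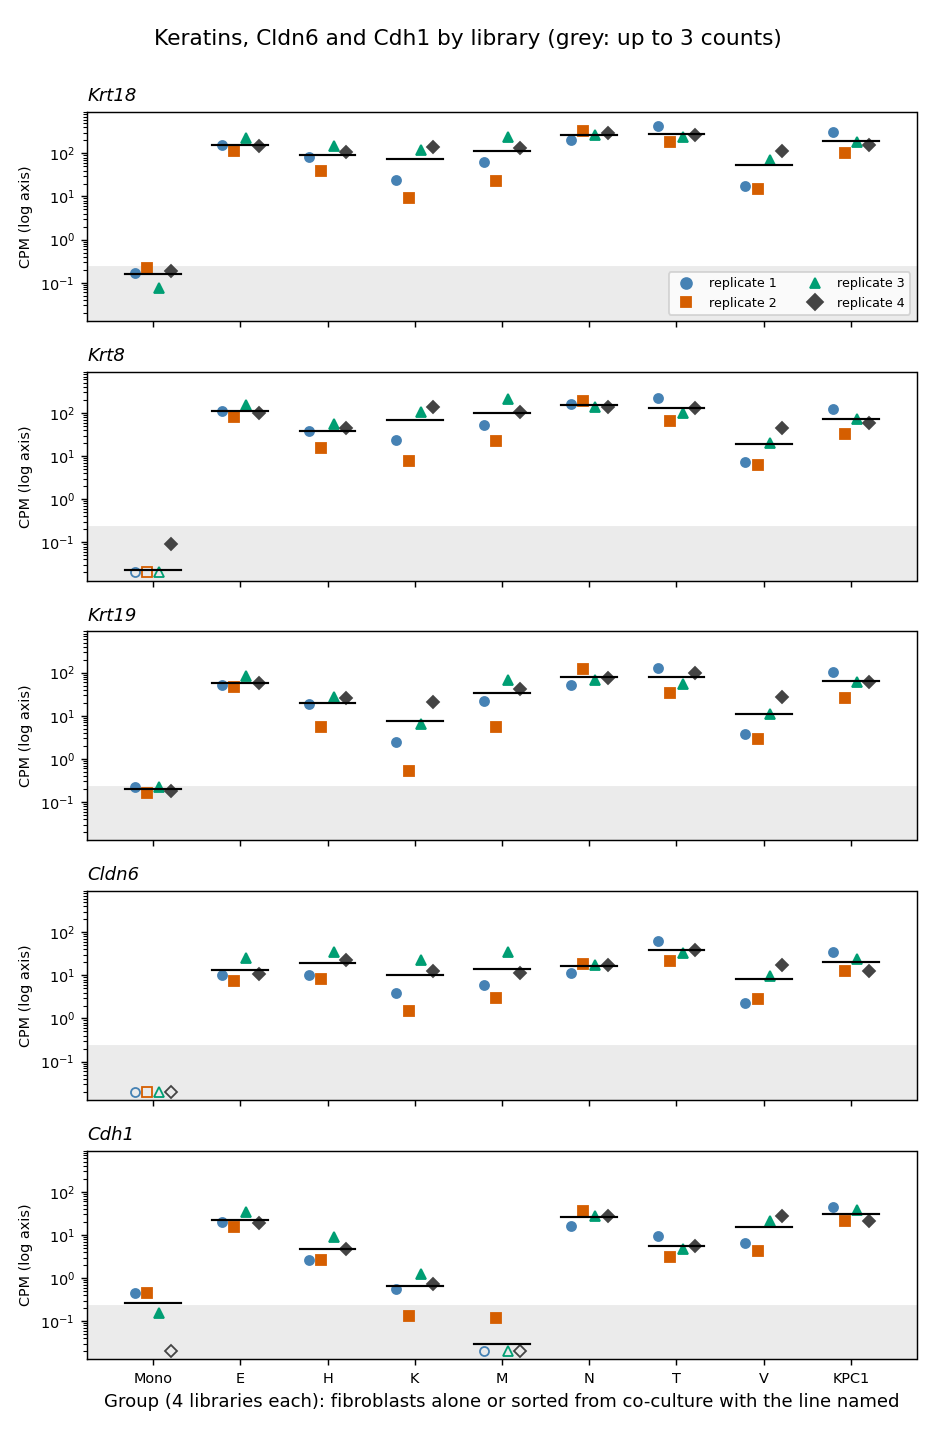
Each panel plots 1 gene in CPM on a log axis against the 9 groups, with a point per library shaped and coloured by replicate number, a bar at the group mean, and open points for libraries at 0, drawn at 0.02. The keratins and Cldn6 lie above the grey band of up to 3 counts in all 32 co-culture libraries, whereas Cdh1 falls into the band with Clone M and in 1 library of Clone K.

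In the contrast that chose the set, 4 of the 9 genes (Krt8, Krt18, Krt19 and Cldn6) had each of the 32 co-culture libraries above each of the 4 mono-culture libraries, as did 3.57% of the 14439 genes tested. None of the 9 had all 32 below mono-culture, against 4.17% of the genes tested. Since the set was chosen on that contrast, nothing is read from these counts. The mean over co-cultures was 960-fold that of mono-culture for Krt18 and 221-fold for Krt19. These folds are rough, since mono-culture held 12 and 14 counts in total, at most 4 per library. No interval was computed for them. For Krt8 the ratio was 3096, with an exact Poisson 95% interval of 857 to 25566 from the 2 mono-culture counts, and Cldn6 was at least 101-fold higher against the floor of 3 counts per mono-culture library. Cdh1 was above each mono-culture library in 27 of 32 co-culture libraries, the exceptions being 1 of Clone K and the 4 of Clone M. In bulk RNA, fewer cells of a type and less RNA per cell cannot be told apart.

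Outside that pattern lay the other 4 genes, which stayed at low counts in each group. The mean over co-cultures was 1.38-fold that of mono-culture for Krt7. It was lower than in mono-culture for Epcam (0.213-fold) and Cldn7 (0.279-fold), all from low counts. Krt7, a type II keratin of ducts (GRCm38 chr15:101411043-101430313), had 0, 6, 5 and 17 counts in mono-culture and 1 to 40 counts in co-culture. Its highest library was Clone M replicate 3 with 40 counts, and the other 3 of that line had 7, 9 and 8. Epcam (chr17:87635979-87651129) had 9, 3, 0 and 1 counts in mono-culture, was at 0 in 23 of the 32 co-culture libraries and reached 6 counts in Clone N replicate 2. Cldn7 (chr11:69964779-69967885) had 4, 7, 2 and 8 counts in mono-culture and 0 to 7 in co-culture, over 3 counts in 2 of 32 libraries. Cldn4 (chr5:134945119-134946934) was at 0 in each library except Clone T replicates 1 and 3, with 2 and 1 counts. Epcam, Cldn7 and Cldn4 did not pass the filter on low counts and had no test in the main fit. In the fit without that filter, which called 42.2% of 24754 genes among the 8 co-cultures, Epcam passed (adjusted p = 0.0164 by edgeR, from 22 counts over 32 libraries), and Cldn4 (0.367) and Cldn7 (0.490) did not.

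**Figure D2:**
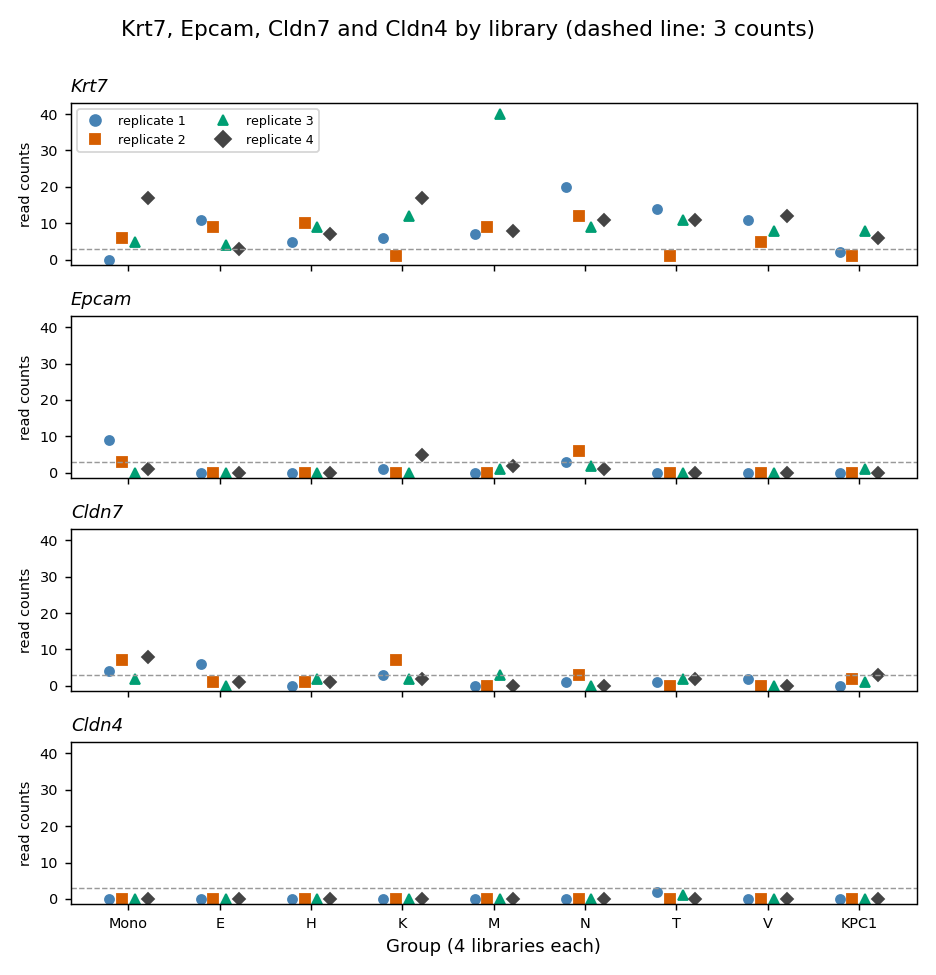
Read counts of Krt7, Epcam, Cldn7 and Cldn4 in each library of the 9 groups, on 1 linear scale, with replicate numbers by shape and a dashed line at 3 counts. Apart from Clone M replicate 3 for Krt7, with 40 counts, the co-culture libraries lie in the range of mono-culture or within 3 counts of it.

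Levels of different genes can be set side by side only per length, in RPKM (counts scaled to library size and gene length). The median over the 32 co-culture libraries was 104 RPKM for Krt18, 42.0 for Krt8, 24.1 for Krt19, 8.53 for Cldn6, 1.68 for Cdh1, 0.118 for Krt7, 0.0399 for Cldn7 and 0 for Epcam and Cldn4. Among the members, Krt18 thus led the type I and Krt8 the type II keratins, and the claudin present was Cldn6 rather than Cldn4 or Cldn7.

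Whether the level of a gene depended on the tumour line was tested among the 8 co-cultures, a contrast with no mono-culture term. The 4 mono-culture libraries still entered the filter, the scaling and the estimate of spread. The quasi-likelihood F-test of edgeR called Cdh1 (adjusted p = 2.6e-10), Krt19 (adjusted p = 4.3e-04), Krt8 (adjusted p = 0.00686) and Krt18 (adjusted p = 0.0122). Krt7 (adjusted p = 0.188) and Cldn6 (adjusted p = 0.0966) did not pass. Of all genes tested 72.0% were called, so 4 of 6 is a share near the background. Cldn6 passed without Clone K replicate 3 (adjusted p = 0.0388), without Clone M replicate 3 (0.0232) or without Clone V replicate 4 (0.0390). It also passed by limma-trend on log2 RPKM (adjusted p = 0.0265 and 0.0298 with 1 and 0.1 added) and did not by DESeq2 (adjusted p = 0.0695). With replicate number as a block in edgeR, Cldn6 passed as well (adjusted p = 0.00579).

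Setting each line against the mean of the other 7 gave 13 calls, 6 of them for Cdh1. With Clone V, 4 of 6 tested members were called (46.3% of all genes): Krt8 was lower by 2.19 (SE 0.591, adjusted p = 0.00325) on the log2 scale, and Krt18 and Krt19 were lower as well, at -1.49 (SE 0.550, adjusted p = 0.0276) and -1.81 (SE 0.606, adjusted p = 0.0157). Cdh1 was higher with Clone V, at 1.95 (SE 0.375, adjusted p = 1.1e-04). That mean of the other 7 includes Clone M and Clone K, where Cdh1 was near 0, and Clone V ranked 4 of 8 by mean Cdh1 level. Without Clone V replicate 1 or 2, the calls of Krt18 and Krt19 were lost, with adjusted p = 0.112 to 0.128 and 0.0695 to 0.0806. The call of Krt18 was also lost without the filter on low counts (adjusted p = 0.0566).

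With Clone K, 2 members were called (47.1% of all genes), Krt19 at -2.36 (SE 0.633, adjusted p = 0.00317) and Cdh1 at -3.14 (SE 1.003, adjusted p = 0.0112). With Clone M, 2 were called (48.0% of all genes), Krt7 at 1.17 (SE 0.450, adjusted p = 0.0319) and Cdh1 at -7.88 (SE 0.934, adjusted p = 1.3e-07). The Krt7 call rested on 1 library: without Clone M replicate 3 the log2 difference was 0.27 (adjusted p = 0.71). The fitted Cdh1 values depend on the near-zero level of Clone M, since it stands in the mean of the other 7 lines, and without Clone M replicate 2, the 1 library of that line with a count, Clone K gave -2.79 (adjusted p = 0.9998). From the counts, the mean CPM of the other 7 lines was 479-fold that of Clone M, with an exact Poisson 95% interval of 133 to 3953 from its 2 counts.

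With Clone N, 2 members were called (14.0% of all genes), Krt19 at 1.47 (SE 0.449, adjusted p = 0.0278) and Cdh1 at 2.89 (SE 0.344, adjusted p = 6.7e-07). With Clone E (10.3% of all genes) and KPC1 (41.1% of all genes) 1 each was called, Cdh1 at 2.603 (SE 0.352, adjusted p = 2.9e-05) and 3.15 (SE 0.336, adjusted p = 1.4e-07). With Clone T (6.66% of all genes) 1 was called, Krt19 at 1.45 (SE 0.450, adjusted p = 0.0484), and this call was lost on leaving out any of 19 of the 32 libraries (adjusted p = 0.05005 to 0.267). Without Clone N replicate 2, 3 or 4 the call of Krt19 with that line was lost (adjusted p = 0.0566 to 0.183). Without the filter on low counts, Krt19 missed the threshold with Clone N (adjusted p = 0.0574) and with Clone T (adjusted p = 0.0915). With Clone H edgeR called 0 of 6 members (28.2% of all genes), 0 had an unadjusted p under 0.05, and no other tool was run on this contrast.

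Ratios within a library do not depend on scaling between libraries or on the total level of the set. Counts of Krt8, Krt19, Cldn6 and Cdh1 were divided by those of Krt18, and the log2 ratio was compared among the 8 lines by a permutation test with 100000 resamples of the 32 libraries. All 4 ratios differed among the lines, each with p = 1e-05 by the upper tail of F, the smallest these permutations can give, and the same value after adjustment over the 4 ratios. The lines thus differed not only in how much of these transcripts was present but in their proportions.

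The Krt8 to Krt18 ratio was highest with Clone K, at -0.13 ± 0.0987 on the log2 scale, and Clone M, at -0.18 ± 0.116. It was lowest with KPC1, at -1.44 ± 0.141, and Clone V, at -1.40 ± 0.282 (SD, n = 4 each). The Krt19 to Krt18 ratio was highest with Clone E, at -1.44 ± 0.121, and lowest with Clone K, at -3.56 ± 0.668. Clone K thus had the highest mean ratio of Krt8 and the lowest of Krt19. Clone M, which overlapped Clone K in the Krt8 ratio, had a Krt19 ratio of -1.78 ± 0.245. The Cldn6 to Krt18 ratio was highest with Clone H, at -2.36 ± 0.415, and lowest with Clone N, at -4.07 ± 0.130. The Cdh1 to Krt18 ratio was highest with Clone V, at -1.73 ± 0.253, followed by KPC1 at -2.57 ± 0.341. It was low with Clone T, at -5.66 ± 0.164, and Clone K, at -6.33 ± 0.984. The 4 Clone M libraries together had 2 counts of Cdh1 beside 7328 of Krt18, so the log2 ratio there depends on the 0.5 counts added. Leaving out Clone K and Clone M, a choice made after seeing the values, left 4 of 4 ratios called.

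**Figure D3:**
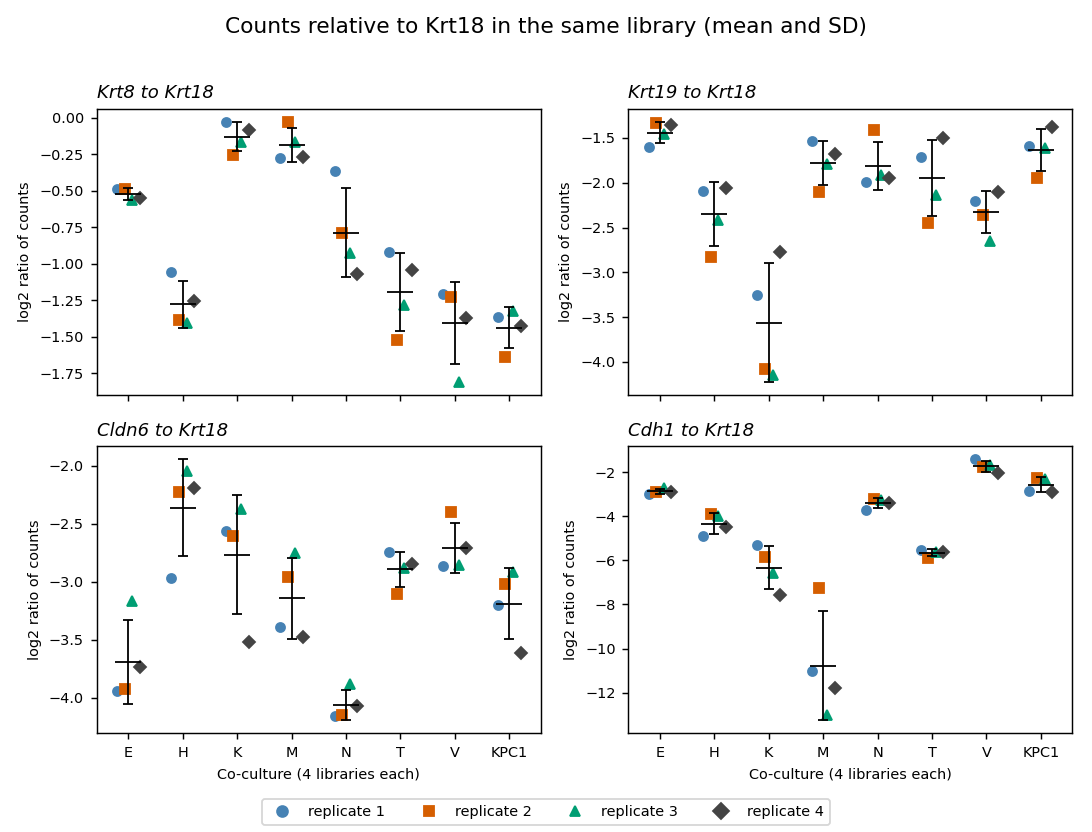
Log2 ratios of the counts of 4 genes to those of Krt18 in the same library, for the 8 co-cultures, with a point per library by replicate number and the mean and SD of 4 libraries in black. The points of a line lie close together for Krt8, whose line means span 1.31, and the line means of Cdh1 span 9.04, down to Clone M.

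Libraries of 1 line varied more in these genes than in most others. The pooled SD within a line on the log2 CPM scale was 1.08 for Krt8, 1.08 for Krt18, 1.10 for Cldn6, 1.25 for Krt19, 0.830 for Cdh1 and 0.889 for Krt7. For tested genes with a mean of at least 1 CPM the median was 0.209 and the 95th percentile 0.611. The log2 ratio of Krt8 to Krt18 had a pooled SD within a line of 0.198 only, against 0.356 for Krt19 and 0.329 for Cldn6. For Cdh1 it was 0.973, larger than for its level. The SD of the Cdh1 ratio was 2.48 within Clone M and 0.984 within Clone K, the lines where Cdh1 counts were low. In the remaining lines it ran from 0.116 (Clone E) to 0.458 (Clone H). The spread of levels was thus mostly shared between Krt8, Krt18, Krt19 and Cldn6. Outside Clone K and Clone M, Cdh1 largely shared it too.

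Across the 32 co-culture libraries, each centred on its line, Krt8 and Krt18 had a Pearson r of 0.983, Krt8 and Krt19 0.971, Krt18 and Cldn6 0.955, and Krt19 and Cldn6 0.887. With the mean of each replicate number removed as well, r was 0.978, 0.958, 0.940 and 0.883. These are descriptions, with no test, over genes measured in the same libraries, which share depth and scaling. Cdh1 followed less closely, with r of 0.613 to Krt18. Over the 24 libraries without Clone K and Clone M, where its counts were low, r was 0.935 to Krt18 and 0.961 to Cldn6.

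**Figure D4:**
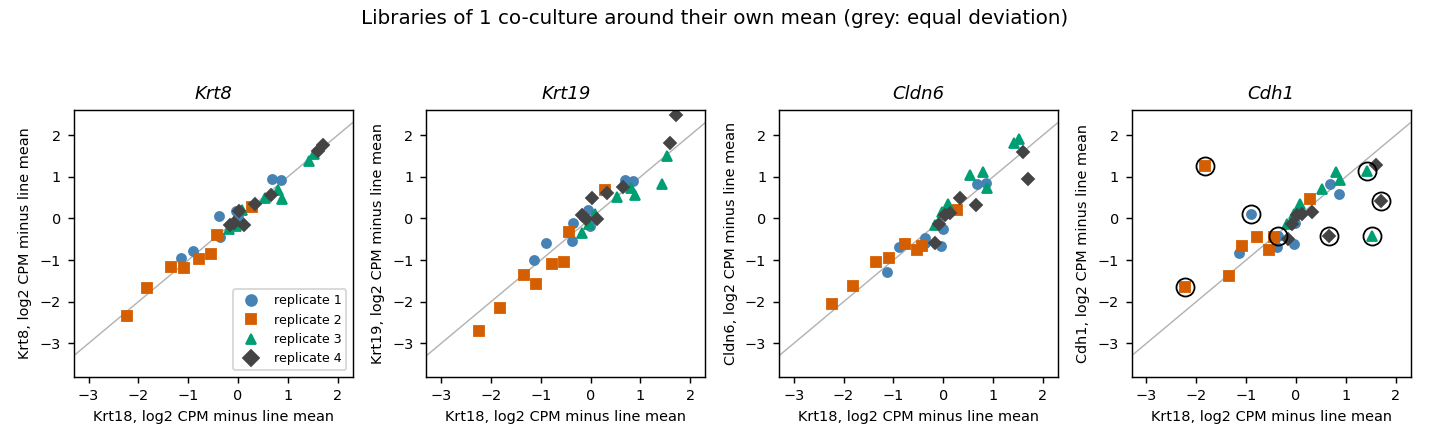
Deviation of Krt8, Krt19, Cldn6 and Cdh1 (log2 CPM minus the mean of the line) against the deviation of Krt18 in the same library, for 32 co-culture libraries by replicate number, with a grey line at equal deviation. Krt8, Krt19 and Cldn6 lie along the line, most squares of replicate 2 lie at the lower left, and the circled Cdh1 points of Clone K and Clone M lie off it.

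The libraries that were low had a common number. Replicate 2 was the lowest of its 4 libraries in 7 of 8 lines for Krt8, Krt18 and Krt19, in 6 for Cldn6 and in 5 for Cdh1; the exception for the keratins was Clone N, where replicate 2 was highest. What the number marks is not given in the labels. In the model of line plus replicate number, edgeR called Cldn6 (adjusted p = 0.0143), Krt18 (adjusted p = 0.0337) and Krt8 (adjusted p = 0.0436), 3 of 6, against 33.6% of 14322 genes tested. Relative to replicate 1 over the lines, replicate 2 differed by -0.997 for Krt8, -0.78 for Krt18 and -0.69 for Cldn6 on the log2 scale, and replicate 3 by 0.45, 0.70 and 1.05. Krt19 (adjusted p = 0.0685), Cdh1 (adjusted p = 0.119) and Krt7 (adjusted p = 0.191) did not pass.

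Single libraries decide this count. It fell to 1 without replicate 2 of Clone H, Clone K, Clone M, Clone V or KPC1 or without Clone H replicate 3, and rose to 5 without Clone N replicate 2. The Krt8 call was lost on leaving out any of 16 of the 32 libraries (adjusted p = 0.0504 to 0.0992) and that of Krt18 on leaving out any of 6 (0.0527 to 0.0765). Without replicate 2 of every line, a setting chosen after seeing the values, the F-test among lines still called 4 members. In that setting 12 single-line contrasts passed, not all of them calls of the main fit. Lost from the main fit by edgeR were Krt19 with Clone N (log2 difference 0.90, adjusted p = 0.186) and Cdh1 with Clone K (-2.62, adjusted p = 0.9999).

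The genes whose levels varied most like the set were named by their Pearson r to the mean log2 CPM of its 6 tested members, over the 32 co-culture libraries centred within line and among 12478 other genes with a mean of at least 1 CPM. The 8 highest were B3gnt3 (r = 0.976), Ripk4 (0.973), Tnfrsf21 (0.972), Wfdc2 (0.969), Elovl7 (0.966), Cadm1 (0.964), Mlph (0.958) and Hmgcll1 (0.957). The median r of all these genes was -0.0066 and the 95th percentile 0.599. Wfdc2 had a mean of 30.9 CPM in co-culture and 0.0389 in mono-culture, and Cadm1 21.6 and 0.0275. Not all 8 were separated from mono-culture: Elovl7, at 0.622 CPM there, stood at 0.241 CPM in 1 co-culture library. The 3 lowest were Psd (r = -0.780), Serpinh1 (-0.776), which encodes a collagen chaperone, and Tmem47 (-0.774).

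Lists of other epithelial genes were chosen with earlier results of these data known. Of the duct and gastric lineage genes, the transcription factors Foxa2 and Pdx1, which act in the development of foregut and pancreas, had each co-culture library above mono-culture. Foxa2 lay at 0.325 to 20.03 CPM in co-culture with at most 1 count in a mono-culture library, and Pdx1 at 0.481 to 15.7 CPM with 0 counts there. Their r to the set was 0.957 and 0.850. Cd24a, a surface glycoprotein gene of many epithelial and other cells, was the 1 of 11 tested surface, protease and trafficking genes with this separation, at 4.70 to 115 CPM against 0.550 to 1.51 CPM. Hnf4a, a further gene of this lineage, had 0 counts in mono-culture, and its line means ran from 0 CPM with Clone M to 3.51 CPM with Clone N.

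Most genes of the other epithelial lists were not separated from mono-culture. Over all 14439 genes tested, 3.57% had each co-culture library above it, so nothing is read from a short list with none. None of the 4 tested other keratins (13 listed, 9 of them with at most 3 counts in each library) had each co-culture library above mono-culture. None of the 12 tested adherens junction and desmosome genes and none of the 7 tested epithelial splicing and transcription factors did either. Among 13 tested tight junction genes, the scaffold gene Tjp1 (130.4 to 253 CPM against 99.9 to 115) lay above it, and Cldn1 and Cldn15 lay below it in each library. Tjp1 was thus already abundant in fibroblasts alone. The F-test among lines called 4 of 4 tested other keratins, 12 of 13 tight junction, 11 of 12 adherens and desmosome, 6 of 7 splicing and transcription, 11 of 11 surface and 6 of 6 lineage genes, beside the 72.0% of all genes.

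The genes named for each list are its most and least abundant ones. Among the other keratins, the most abundant tested genes in co-culture were Krt80 (0.814 to 12.9 CPM in co-culture, 2.92 to 5.85 in mono-culture) and Krt10 (1.197 to 4.68 CPM in co-culture, 2.47 to 4.02 in mono-culture), and the least abundant was Krt16 (0 to 1.30 CPM in co-culture, 0 to 0.152 in mono-culture). Among the tight junction genes, the most abundant tested genes in co-culture were Tjp1 (130.4 to 253 CPM in co-culture, 99.9 to 115 in mono-culture) and F11r (65.7 to 128 CPM in co-culture, 83.5 to 114 in mono-culture), and the least abundant was Cldn23 (0.0607 to 1.33 CPM in co-culture, 0.0550 to 0.320 in mono-culture). Among the adherens junction and desmosome genes, the most abundant tested genes in co-culture were Ctnnb1 (328 to 761 CPM in co-culture, 568 to 599.7 in mono-culture) and Ctnna1 (395 to 749 CPM in co-culture, 529 to 602 in mono-culture), and the least abundant was Pkp3 (0.0607 to 1.14 CPM in co-culture, 0.366 to 0.661 in mono-culture). The co-culture ranges of F11r, Ctnnb1 and Ctnna1 overlapped those of fibroblasts grown alone. Among the epithelial splicing and transcription factors, the most abundant tested genes in co-culture were Klf5 (10.4 to 46.1 CPM in co-culture, 6.16 to 12.5 in mono-culture) and Esrp2 (0.486 to 4.21 CPM in co-culture, 0.456 to 1.46 in mono-culture), and the least abundant was Grhl1 (0 to 0.849 CPM in co-culture, 0.0550 to 0.304 in mono-culture). Among the surface, protease and trafficking genes, the most abundant tested genes in co-culture were Cd24a (4.70 to 115 CPM in co-culture, 0.550 to 1.51 in mono-culture) and Itgb4 (1.17 to 61.0 CPM in co-culture, 1.75 to 2.59 in mono-culture), and the least abundant was Lcn2 (0 to 4.80 CPM in co-culture, 0 to 0.304 in mono-culture). Among the duct and gastric lineage genes, the most abundant tested genes in co-culture were Sox9 (25.5 to 149 CPM in co-culture, 42.7 to 46.3 in mono-culture) and Gata6 (17.96 to 119 CPM in co-culture, 55.05 to 60.6 in mono-culture), and the least abundant was Hnf4a (0 to 7.53 CPM in co-culture, 0 to 0 in mono-culture).

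**Figure D5:**
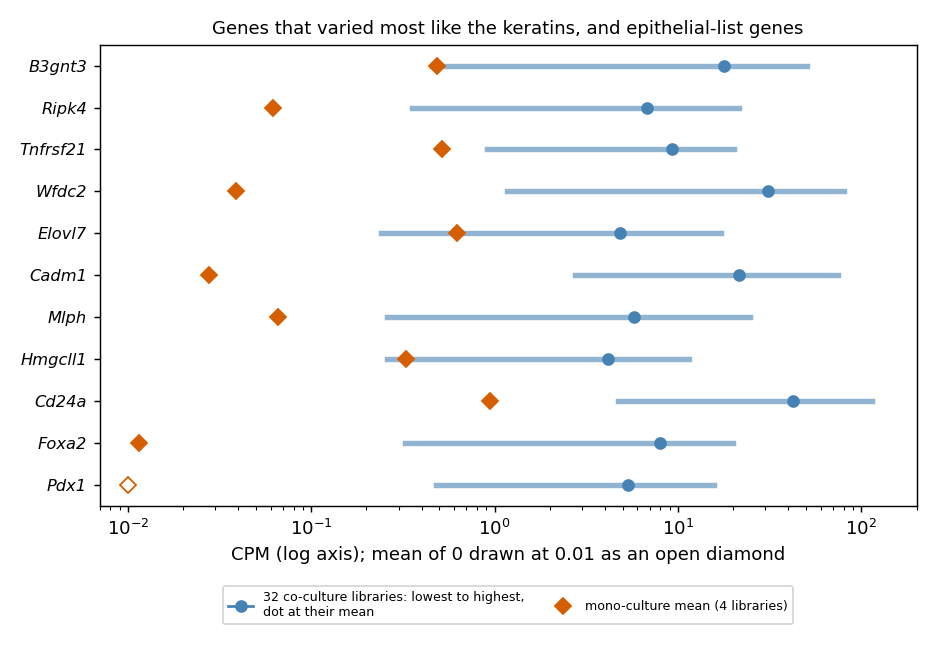
Range from the lowest to the highest of 32 co-culture libraries (bars, dot at the mean) and mono-culture mean of 4 libraries (diamonds, open at 0) in CPM on a log axis, for the 8 genes most like the set and 3 genes of the epithelial lists. Cadm1, Wfdc2, Cd24a, Foxa2 and Pdx1 have their diamonds well to the left of the bars, whereas those of B3gnt3, Elovl7 and Hmgcll1 touch or lie on them.

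Genes for repressors of Cdh1 were present in fibroblasts in each group. All 6 listed (Snai1, Snai2, Zeb1, Zeb2, Twist1 and Twist2) were tested, and 5 were called among the lines, beside 72.0% of all genes, Zeb1 being the exception. Zeb2 stood at 166 ± 6.69 CPM in mono-culture, 394 ± 47.5 with Clone M, where Cdh1 was lowest, 316 ± 46.7 with Clone E and 239.5 ± 46.2 with KPC1, where Cdh1 was highest (SD, n = 4 each). It was lowest among the lines with Clone H, at 229 ± 53.2 CPM, where Cdh1 was low. Snai2 stood at 83.9 ± 4.12 CPM in mono-culture, 128 ± 5.37 with Clone M, 126 ± 7.202 with Clone K, 79.9 ± 20.4 with KPC1 and 80.4 ± 9.26 with Clone T (SD, n = 4 each). Both genes were present in fibroblasts alone, so their level in bulk RNA does not tell which cells carried these transcripts. Snai1 and Twist1 lay above mono-culture in each of the 32 libraries and Zeb1 below it. Their part in the levels of Cdh1 was not tested.

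The neighbours of the members in the annotation (GENCODE vM21) were looked up for reads over a wider region. Krt8 and Krt18 are separated by 23697 bases. Krt78, on the far side of Krt8, was at most 0.271 CPM in any co-culture library, and Eif4b, on the far side of Krt18, lay at 694 to 1937 CPM in co-culture and 938 to 1181 CPM in mono-culture. Cldn9, which lies 137 bases from Cldn6, reached 0.304 CPM at most, and Krt15, 4881 bases from Krt19, reached 0.130 CPM. Genes beside Cdh1 differed from it: Tango6, 12821 bases away, lay at 18.6 to 36.4 CPM in co-culture, Clone M and Clone K included. Cldn3, a neighbour of Cldn4, had 0 counts in mono-culture and passed the filter on low counts. It ranged from 0 to 4.04 CPM over the co-culture libraries, with a median of 0.0528.

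Markers of other cell types were mostly low, and the mesothelial gene Msln and the immune gene Cd68 had r to the set above the 95th percentile of 0.599. The 6 endocrine markers summed to at most 0.137 CPM in mono-culture and 0.130 CPM in co-culture, with Ins1 and Ins2 at 0 in each library. The 9 acinar markers summed to 6.44 to 9.52 CPM in mono-culture and 2.06 to 10.7 in co-culture, with Prss1, Amy2a5 and Ptf1a at 0. Nearly all of that was Cela1. The 7 immune markers in the table summed to 5.63 to 9.19 and 1.44 to 16.3 CPM, with Cd3e at 0, the 6 endothelial markers to 1.75 to 3.08 and 1.12 to 6.39 CPM, with Cldn5 at 0, and the 4 Schwann cell markers to 4.13 to 5.61 and 1.42 to 7.29 CPM. The 6 mesothelial markers summed to 9.51 to 15.6 and 3.71 to 71.0 CPM. In that list Msln, a surface protein of mesothelium and of pancreatic tumours, had 8.29 to 13.9 CPM in mono-culture, 3.12 to 70.5 in co-culture and r = 0.893 to the set. The F-test among lines called 1 of 1 tested acinar, 3 of 3 immune, 1 of 3 endothelial, 1 of 2 Schwann cell, 1 of 2 mesothelial and 12 of 14 fibroblast markers, beside the 72.0% of all genes, and none of the endocrine markers could be tested. In co-culture the fibroblast markers Fap and Cdh11 lay above mono-culture in each library. Cd68, a marker of macrophages, had 2.33 to 4.35 CPM in mono-culture, 0.963 to 15.2 in co-culture and r = 0.648. The other tested immune markers did not follow the set, with r = -0.127 for Csf1r and -0.460 for Lyz2. The other tested mesothelial marker, Bnc1, had r = 0.388. Of the fibroblast markers, Fap had r = -0.65, Thy1 -0.62 and Vim 0.62, the most extreme of the 14. The rest lay between -0.49 (Cdh11) and 0.13 (Pdgfra). Whether the amount of tumour cells or RNA left after sorting differed between libraries was not tested.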

How the data were processed

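PolyA RNA of 36 libraries (200 ng input, 14 PCR cycles, 76 bp paired ends) was measured. The deposited count table holds raw counts for 39017 genes, and a deposited RPKM table was used for levels per length and as an alternative. Per the labels, the authors used STAR, featureCounts and edgeR on mm10, and versions are not given in the sources used here. The members and gene lists were chosen with earlier results of these data known.

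Counts were scaled by TMM, filtered by filterByExpr over the 9 groups (14439 genes kept) and fitted in edgeR 4.0.16 (R 4.3.3) with 1 coefficient per group, by the robust quasi-likelihood test. p-values were adjusted by Benjamini-Hochberg over all genes tested, at 0.05. Co-culture against mono-culture chose the set and was not tested. Ratios to Krt18 had 0.5 counts added. Named genes were the 9 members, the 8 most and 3 least correlated genes and annotated neighbours. Of each list, the 2 most and the 1 least abundant tested genes and those separated from mono-culture were named. Vim, Thy1, Fap and Pdgfra were named after their values were seen. Apart from the markers named above, the marker lists of other cell types are given as summed levels. Alternatives included DESeq2 1.42.0 and limma 3.58.1. Some genes of the lists are not reported here. The fit was tested on simulated data. No 2 libraries of a group agreed within sampling noise (lowest chi-square per degree of freedom 5.53 over 54 pairs).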

Additional observations from a re-analysis of the deposited data

Results flagged for a closer look

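In sets of 4 libraries, 1 library lay far from the other 3 by Dixon's ratio of gap to range in 4 of 80 sets, and chance flags about 1 in 20. These were Krt7 with Clone N (replicate 1, ratio 0.891), Krt7 with Clone T (replicate 2, 0.877), Cldn6 with Clone N (replicate 1, 0.885) and the Krt19 to Krt18 ratio with Clone N (replicate 2, 0.858).

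Among the 8 co-cultures, the level differed by edgeR's F-test for Krt8 (adjusted p = 0.00686), Krt18 (adjusted p = 0.0122), Krt19 (adjusted p = 4.3e-04) and Cdh1 (adjusted p = 2.6e-10). The ratios of Krt8, Krt19, Cdh1 and Cldn6 to Krt18 differed by the permutation test, each with p = 1e-05, the smallest it can give.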

How the results depend on the processing

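Of the 6 tested members, 4 differed among the co-cultures, and 4 to 5 did on leaving out 1 library. The count was 2 with a filter of at least 10 counts in every co-culture library, where Cdh1 and Krt19 were no longer tested, and single-line calls were then 2 instead of 13. Leaving out 1 library gave 10 to 19 single-line calls, 10049 to 10663 genes called among the lines, 1 to 5 members by replicate number, and 4 of 4 ratios and 4 members above mono-culture each time. Without a filter on low counts, 1 member was called by replicate number. Libraries with the same replicate number were alike in part, though not in every pair. Of 112 such pairs, 63 had r over 0.1, and the lowest r was -0.519. The median r was 0.143, against -0.0436 for pairs of different number, and 23 of 32 libraries correlated best with their own number. The main fit among the lines had no term for this number. With the replicate block, single-line calls were 20, members among the lines 5, genes differing among the 8 co-cultures 11289 and ratios 4. Cldn6 passed with the block (adjusted p = 0.00579). Chosen after seeing the data, leaving out Clone K and Clone M gave 5 members and 7530 genes. Single-line differences that missed the threshold were not followed across alternatives. Without the filter, members among the lines were 5, Epcam being the added one (adjusted p = 0.0164). Krt19 with Clone T was also lost with library size only (adjusted p = 0.0570) and with only the 32 co-culture libraries (0.0691). Depth limits Epcam, Cldn4 and Cldn7, which had 22, 3 and 46 counts over the 32 libraries.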
